A study of Mus musculus with 19 samples.

Results

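The genes described here encode the protein subunits of the mitochondrial ribosome and of the protein import machinery of mitochondria. They were taken from the authors' deposited FPKM table by name: 101 entries had a gene name that begins with Mrpl, Mrps, Timm or Tomm, and none of these was named as a pseudogene. An entry was kept when it reached 1 FPKM in at least 2 of the 19 libraries. FPKM is a fragment count scaled to transcript length and to all mapped fragments. This left 99 genes, of 14942 entries kept by the same rule and 38424 entries in all. They comprise 47 genes of the large ribosomal subunit, 29 of the small subunit and 9 Tomm genes. These 9, Tomm34 among them, are grouped by name with the TOM complex of the outer membrane. The rest are 6 genes of the TIM23 complex, 7 of the TIM22 complex and its small Tim chaperones, and Timmdc1, which assembles respiratory complex I. Timm8a2 and Tomm20l fell below the floor.

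The study sequenced mRNA from mouse embryonic stem cell lines that carried a control hairpin (shCtrl) or a hairpin against 1 of 7 targets, and the labels give no difference between the 2 kinds of line other than the hairpin. In the first culture, cells differentiated in serum medium after withdrawal of leukemia inhibitory factor (LIF), the cytokine that holds mouse embryonic stem cells undifferentiated. This culture held CJ7 cells at day 4 with shCtrl (1 library) or shEvx1as (2), CJ9 cells at day 4 with shCtrl (1) or shEVX1 (2), CJ9 cells at day 5 with shCtrl (2) or shFendrr (2), and CJ9 cells at day 6 with shCtrl (1) or shLhx1os (1). Both lines are of strain 129S4/SvJae. In the second culture, 46c cells were kept for 4 days in serum-free N2B27 medium with 5 nM retinoic acid, with shCtrl (2), shNr2f1as (2), shSox21os (1) or shPou3f3os (2). Cell line, medium and retinoic acid therefore change together between the cultures and cannot be told apart. Days differ too, since all retinoic acid libraries are of day 4 and the LIF-withdrawal libraries of days 4 to 6. Numbered libraries are treated as replicates; nothing in the labels says whether they came from separate cultures, so p-values measure the spread between these libraries only.

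Of the targets, 2 had an entry of their own name. Evx1 stood at 53.9 FPKM in the CJ9 day-4 control and at 30.2 and 37.0 FPKM with shEVX1. Fendrr held 1.10 and 1.49 FPKM without and 0.36 and 0.08 FPKM with shFendrr at day 5. The other 5 targets were matched to no entry by name and were not analysed here. Markers followed the culture labels: the summed FPKM of 4 neural plate genes lay at 190 to 285 in the retinoic acid libraries and at 6.81 to 56.3 after LIF withdrawal, and that of 6 primitive streak and mesoderm genes at 2.20 to 12.4 and at 48.8 to 654. The 3 pluripotent markers Pou5f1, Nanog and Zfp42 summed to 60.2 FPKM in the first retinoic acid control and to 376 FPKM in the second, so this pair of controls did not match in state.

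As background, mitochondria hold their own ribosome, which translates only the few proteins that mitochondrial DNA encodes, all of them made for the respiratory chain and ATP synthase. Its proteins are encoded in the nucleus, made in the cytosol and imported. The TOM complex takes precursors through the outer membrane; TIM23 passes those with a presequence on to the matrix, while small Tim chaperones bring carrier proteins to TIM22 in the inner membrane.

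Many nuclear genes for mitochondrial proteins have start regions with binding sequences for NRF1, for GABPA and other ETS factors, or for YY1, and MYC binds the E-box. A window from 250 bases before to 50 bases after each annotated start was read from RefSeq (GRCm38.p6) for 87 of the 99 genes, in 95 windows. The ETS letters CCGGAAG occurred on either strand in 34.7% of these windows, in 16.8% of 12962 windows of kept entries and in 8.86% of all 32851 windows. The YY1 letters AAGATGGC occurred in 13.7%, 4.31% and 2.75%, the NRF1 letters GCGCATGC in 9.47%, 5.07% and 2.71%, the E-box CACGTG in 11.6%, 9.99% and 7.15%, and the TATA letters TATAAA in 7.37%, 6.94% and 13.6%. These are letter matches, counted with any overlap, and not shown to be bound sites. The 6 windows printed here belong to genes on which the later results turn, with matches to these letters in capitals: the paralogs Timm17a and Timm17b, which went opposite ways between the cultures, Timm23 and Tomm20, which were low in retinoic acid, and Timm10 and Mrpl20, which were low with the retinoic acid hairpins.
Timm17a (chr1:135313688-135313987, minus strand, no match): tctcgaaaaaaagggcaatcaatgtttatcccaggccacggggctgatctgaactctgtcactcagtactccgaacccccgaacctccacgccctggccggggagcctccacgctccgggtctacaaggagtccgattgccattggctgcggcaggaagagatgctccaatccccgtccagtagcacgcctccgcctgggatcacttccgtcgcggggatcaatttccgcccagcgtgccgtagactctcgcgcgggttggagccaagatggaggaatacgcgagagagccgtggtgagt
Timm17b (chrX:7899086-7899385, plus strand, no match): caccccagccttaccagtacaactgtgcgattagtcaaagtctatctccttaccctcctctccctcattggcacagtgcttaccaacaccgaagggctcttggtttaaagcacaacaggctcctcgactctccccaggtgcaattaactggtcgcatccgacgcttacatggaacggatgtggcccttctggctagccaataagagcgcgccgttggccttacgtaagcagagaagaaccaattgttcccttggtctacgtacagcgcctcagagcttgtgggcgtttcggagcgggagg
Timm23 (chr14:32201842-32202141, minus strand, 2 ETS matches): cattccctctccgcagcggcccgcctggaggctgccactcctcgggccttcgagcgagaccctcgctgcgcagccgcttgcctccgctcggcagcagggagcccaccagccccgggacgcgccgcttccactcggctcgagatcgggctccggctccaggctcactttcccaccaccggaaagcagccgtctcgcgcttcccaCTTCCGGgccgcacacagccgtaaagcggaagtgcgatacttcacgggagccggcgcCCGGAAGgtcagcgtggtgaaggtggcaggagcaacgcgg
Tomm20 (chr8:126945872-126946171, minus strand, 1 E-box): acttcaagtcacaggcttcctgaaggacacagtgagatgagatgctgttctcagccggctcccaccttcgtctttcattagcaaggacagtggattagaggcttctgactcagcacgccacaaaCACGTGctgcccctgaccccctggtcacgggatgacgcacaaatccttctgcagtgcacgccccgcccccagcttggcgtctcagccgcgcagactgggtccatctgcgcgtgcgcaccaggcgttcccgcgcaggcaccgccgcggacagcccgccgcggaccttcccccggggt
Timm10 (chr2:84826771-84827070, plus strand, 4 matches, of which 3 are ETS and 2 of those overlap, and 1 E-box): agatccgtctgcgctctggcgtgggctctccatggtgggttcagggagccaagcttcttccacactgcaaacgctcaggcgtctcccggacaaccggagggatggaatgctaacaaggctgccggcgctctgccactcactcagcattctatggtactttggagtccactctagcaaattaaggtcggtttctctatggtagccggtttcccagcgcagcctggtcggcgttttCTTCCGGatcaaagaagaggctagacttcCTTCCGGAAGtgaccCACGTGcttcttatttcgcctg
Mrpl20 (chr4:155802628-155802927, plus strand, 1 E-box): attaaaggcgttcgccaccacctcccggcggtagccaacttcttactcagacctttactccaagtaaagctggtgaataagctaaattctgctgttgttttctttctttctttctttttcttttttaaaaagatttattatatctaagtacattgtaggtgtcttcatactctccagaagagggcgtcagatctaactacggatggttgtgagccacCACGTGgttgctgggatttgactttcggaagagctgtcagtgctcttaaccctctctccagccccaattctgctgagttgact

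Nearly all of the 99 genes were expressed throughout: 97 were above 1 FPKM in all 19 libraries and 82 above 10 FPKM, with a median of the mean levels of 38.3 FPKM. FPKM is a level per transcript length, so it can be set between genes. Tomm6, a small subunit of the TOM complex, had the highest mean level (246 FPKM), followed by Mrps21 (192) and Mrpl52 (189). Mrpl1 (1.65), Mrpl35 (4.03) and Mrpl19 (4.49) had the lowest. Together the genes made up 0.744% to 0.888% of the summed FPKM of a library; the 2 retinoic acid controls were highest (0.888% and 0.887%), and the 5 retinoic acid knockdowns lay at 0.772% to 0.802%.

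Single genes were less even than the sum. The standard deviation (SD) of log2(FPKM + 1) over the 19 libraries had a median of 0.31 over the 99 genes and of 0.37 over 5461 entries of like level. Mrpl35 (SD 0.92), Mrpl39 (0.82), Timm23 (0.73), Mrps18c (0.70) and Mrps14 (0.67) varied most, and Mrpl37 (0.15), Mrpl40 (0.16) and Mrps23 (0.17) least. Mrpl37 ran from 48.3 to 70.4 FPKM, while Mrpl35 ran from 0.594 to 9.08 FPKM. In bulk samples, fewer cells of a type and less RNA per cell cannot be told apart, which holds for every level given here.

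**Figure D1:**
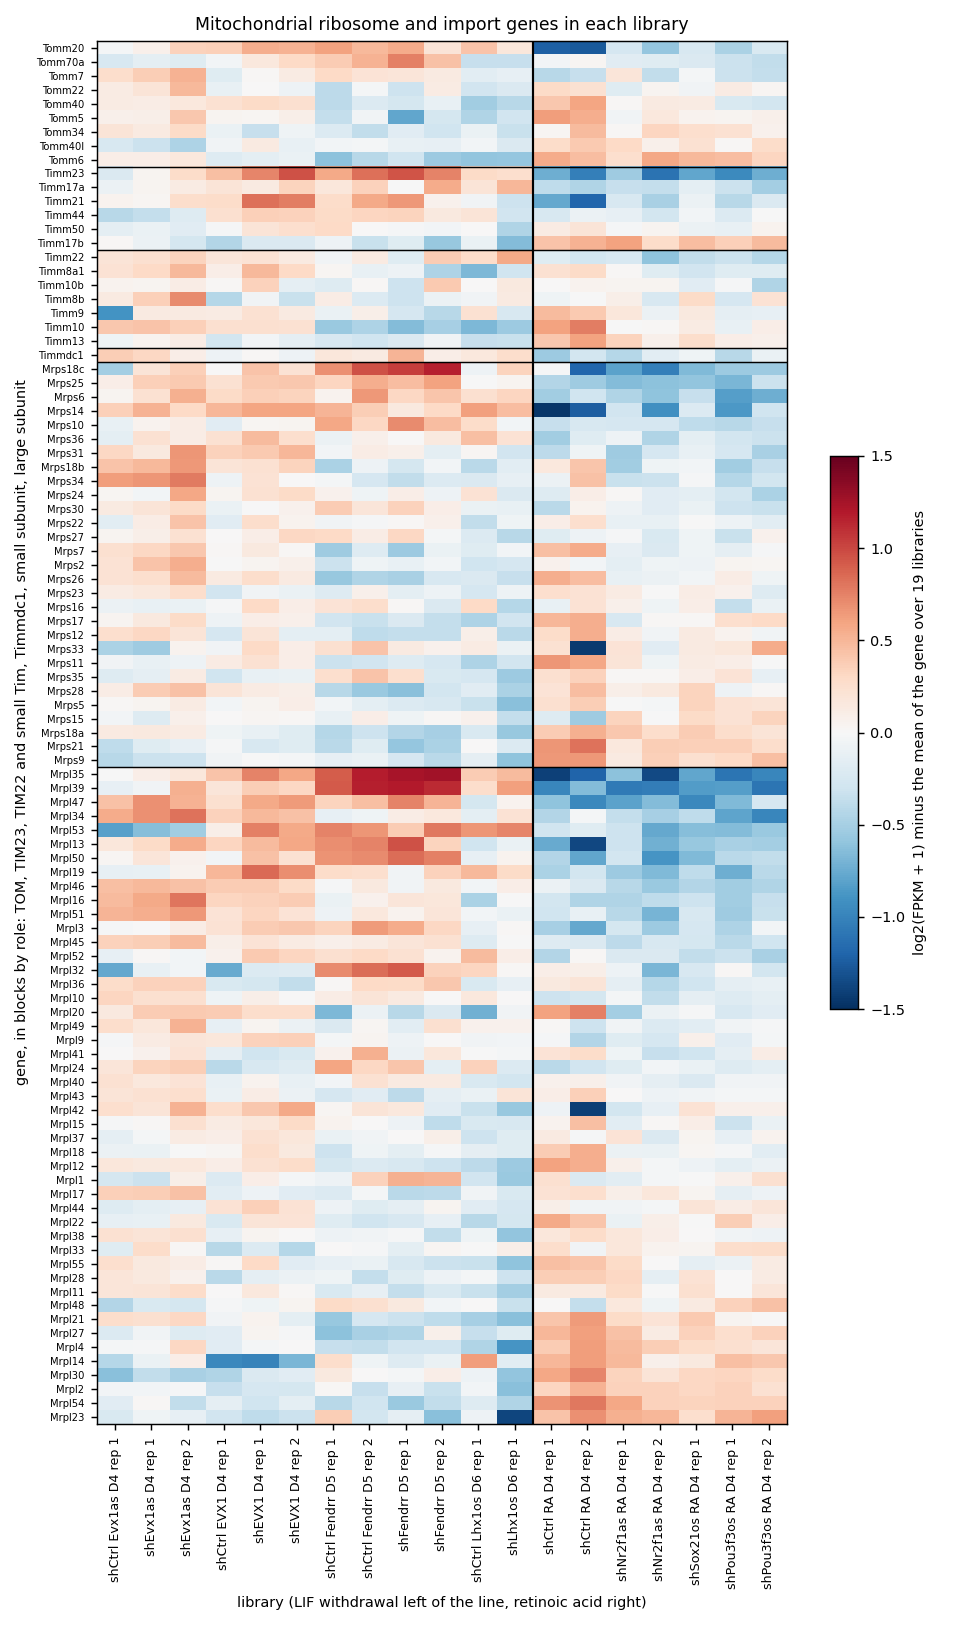
Heat map of the 99 genes (rows, in blocks by role) in the 19 libraries (columns), as log2(FPKM + 1) minus the mean of the gene over all libraries; red is above and blue below that mean, with colours ending at 1.5 either way. Timm23, Mrps14, Mrpl35 and Mrpl39 are blue in the retinoic acid libraries, while Tomm6, Mrps21, Mrps9 and Mrpl54 are red there.

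The first comparison asked how the 2 cultures differed in the control libraries. Of the 99 genes, 38 were higher and 32 lower in the 2 retinoic acid controls than in the 5 LIF-withdrawal controls (limma on log2(FPKM + 1), Benjamini-Hochberg adjusted p under 0.05 over all 14942 entries, each group of controls counted equally). That is 70.7% of the genes, beside 59.8% of all entries tested (30.3% higher and 29.5% lower). The median log2 change was 0.16, beside 0.00 over all entries. The genes thus moved in both directions within each complex, and the share called was not far above the background of a comparison in which most entries differed.

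The second comparison repeated the first in the knockdown libraries, 5 in retinoic acid against 7 after LIF withdrawal, which share no library with it. Here 23 genes were higher and 36 lower, 59.6% of the 99, beside 69.1% of all entries (36.1% higher and 33.0% lower), with a median change of -0.08 (0.02 over all entries). In both comparisons 19 genes were higher and 29 lower, 68.6% of the calls in controls and 81.4% of those in knockdowns; over all entries these shares were 84.0% and 72.7%. Mrps15, of the small subunit, and Timm8a1, a small Tim chaperone, were called in opposite directions, as were 89 of all 14942 entries; the test of the difference between the 2 changes passed for Mrps15 (adjusted p = 0.0408) and not for Timm8a1 (adjusted p = 0.0659). In 25 genes all 7 retinoic acid libraries lay outside the range of the 12 LIF-withdrawal libraries, 9 above and 16 below. That is 25.3% of the genes, beside 27.6% of all entries.

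**Figure D2:**
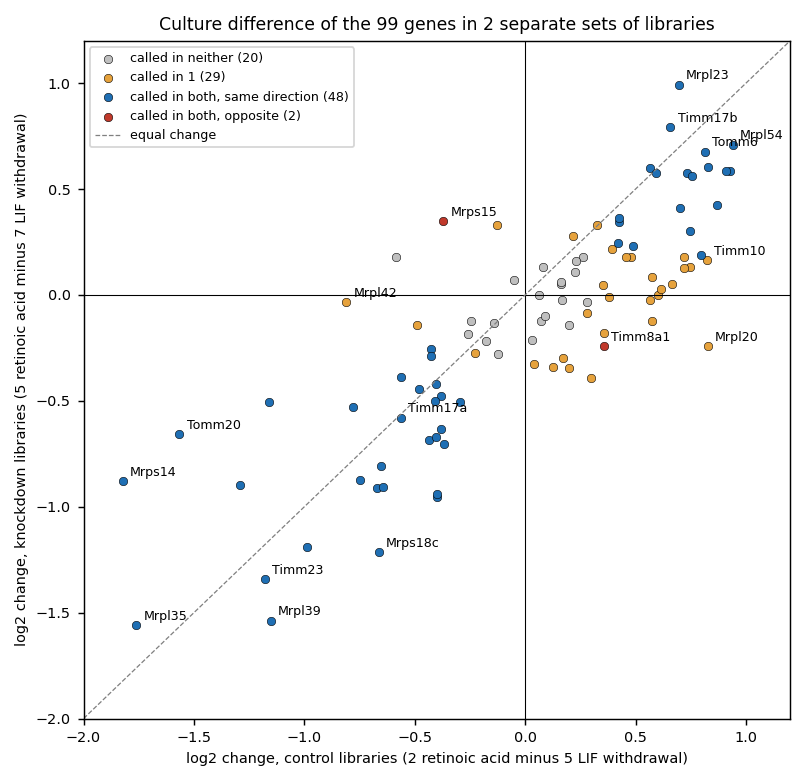
Each point is 1 of the 99 genes, with its log2 change between cultures in the control libraries (x axis, 2 against 5) and in the knockdown libraries (y axis, 5 against 7), coloured by the call of each comparison. The 48 genes called the same way in both lie in the lower left and upper right, from Mrpl35 to Mrpl54 and Mrpl23; Mrps15 and Timm8a1 were called in opposite directions.

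In the TOM complex, the presequence receptor and the channel went opposite ways in the controls. Tomm20, that receptor (chr8:129454564-129469821; positions of genes are mm9, as deposited), stood at 19.1 and 18.7 FPKM in both retinoic acid controls and at 45.1, 59.2, 62.1, 65.2 and 70.5 FPKM in the LIF-withdrawal controls. The 2 sets of libraries were far apart. The log2 change was -1.57 (standard error (SE) 0.13, limma adjusted p = 3.83e-06), and -0.66 (SE 0.10, adjusted p = 0.000109) in the knockdowns. Tomm40, the channel itself, was higher in the retinoic acid controls, at 173 and 197 FPKM against 90.4 to 153 FPKM (log2 change 0.62, SE 0.09, adjusted p = 0.00019), but not in the knockdowns (0.03, adjusted p = 0.704). Tomm40 overlaps a neighbouring entry at a mean of 22.5 FPKM over 414 bases, so its level is uncertain where reads could belong to either.

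Of the 9 genes grouped by name as TOM, 5 were higher and 2 lower in the controls, and 3 higher (Tomm34 among them) and 3 lower in the knockdowns. Tomm6 rose in both: 347 and 327 FPKM in the retinoic acid controls, 282 to 354 FPKM (median 326) in the 5 retinoic acid knockdowns, and 154 to 264 FPKM (median 199) in the 12 LIF-withdrawal libraries, with no overlap. Its log2 changes were 0.81 (SE 0.11) and 0.68 (SE 0.08). Tomm40l, the paralog of Tomm40, was also higher in both (0.43 and 0.37). Tomm22, the central receptor, was higher in the controls (0.38, adjusted p = 0.0403) and changed by -0.01 in the knockdowns (adjusted p = 0.925); the test of the difference between these 2 changes did not pass (adjusted p = 0.216). Tomm70a, the receptor for carrier proteins, was lower in the knockdowns (-0.33, adjusted p = 0.00244) with overlapping libraries, and its change was 0.04 in the controls (adjusted p = 0.747).

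In the TIM23 complex, Timm23, which forms the presequence channel of the inner membrane (chr14:32993352-33015077), was low in every retinoic acid library. It ran from 66.6 to 99.3 FPKM (median 84.2) in the 7 of them and from 124 to 281 FPKM (median 207) in the 12 after LIF withdrawal. The log2 change was -1.18 (SE 0.16, adjusted p = 0.000118) in the controls and -1.34 (SE 0.12, adjusted p = 2.43e-06) in the knockdowns. The level after LIF withdrawal was not even: the CJ7 control held 124 FPKM, below the 176 to 257 FPKM of the CJ9 controls.

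Timm17a and Timm17b are alternative partners of Timm23 encoded by paralogous genes. Timm17a (chr1:137198112-137210314) stood at 82.7 to 107 FPKM (median 92.2) in retinoic acid and at 112 to 174 FPKM (median 135) after LIF withdrawal. Timm17b (chrX:7476524-7484778) stood at 29.2 to 36.8 FPKM (median 33.2) and at 14.8 to 24.1 FPKM (median 20.5). Neither gene's libraries overlapped between cultures, and the paralogs went opposite ways: Timm17a by -0.56 (SE 0.14, adjusted p = 0.00449) in the controls and -0.58 (SE 0.10, adjusted p = 0.000331) in the knockdowns, Timm17b by 0.66 (SE 0.14, adjusted p = 0.0016) and 0.79 (SE 0.10, adjusted p = 3.01e-05). Timm17a stayed the more abundant of the pair in all 19 libraries.

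Timm21, which links TIM23 to the outer membrane, was lower in both comparisons (-1.16 and -0.51); it lies inside the entry Fbxo15 and its reads could be shared. Timm50, the TIM23 receptor, whose locus overlaps an abundant second entry (AK211593), changed by 0.16 (adjusted p = 0.17) and 0.06 (adjusted p = 0.455). Timm44, which docks the import motor, changed by -0.25 (adjusted p = 0.0522) and -0.12 (adjusted p = 0.153). The receptor and the motor dock thus did not pass the test in either set while the channel subunits did.

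Of the 7 genes of TIM22 and the small Tims, 4 were higher and 1 lower in the controls, and 1 higher and 2 lower in the knockdowns. Timm10, a chaperone of carrier precursors (chr2:84667178-84670370), stood at 46.6 and 52.0 FPKM in both retinoic acid controls and at 18.5 to 40.2 FPKM in the LIF-withdrawal controls (log2 change 0.82, SE 0.10, adjusted p = 3.33e-05), with a change of 0.16 in the knockdowns (adjusted p = 0.0527). Its partner Timm9 stood at 14.1 and 13.3 FPKM against 4.81, 10.8, 11.7, 9.12 and 10.5 FPKM (0.58, adjusted p = 0.000985), and changed by 0.09 in the knockdowns (adjusted p = 0.356). Timm13 was higher in both comparisons (0.74 and 0.30). Timm22, the carrier channel itself, was lower in both, at 4.60 to 6.49 FPKM in retinoic acid and 6.51 to 11.7 FPKM after LIF withdrawal (-0.40, adjusted p = 0.0462, and -0.67, adjusted p = 0.000338). Timm8a1 changed by 0.36 (adjusted p = 0.0345) and -0.24 (adjusted p = 0.039). Timmdc1 was lower in both (-0.56 and -0.39).

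Among the 47 genes of the large ribosomal subunit, 15 were higher and 17 lower in the controls, and 11 higher and 17 lower in the knockdowns. Mrpl35 (chr6:71762991-71773778) was low in all retinoic acid libraries: 0.594 and 0.830 FPKM in the retinoic acid controls, 0.645 to 1.75 FPKM (median 1.14) in the knockdowns there, and 3.18 to 9.08 FPKM (median 5.06) after LIF withdrawal. The log2 changes were -1.76 (SE 0.18, adjusted p = 1.48e-05) and -1.56 (SE 0.13, adjusted p = 1.75e-06), and they understate the fold of a gene so near the pseudocount. Mrpl39 (chr16:84717825-84735547) stood at 4.38 to 6.37 FPKM in retinoic acid and 9.56 to 25.3 FPKM after LIF withdrawal, with changes of -1.15 and -1.54. Mrpl13 (-1.29 and -0.90) and Mrpl47 (-0.99 and -1.19) were lower in both too. Mrpl34 was lower in both (-0.40 and -0.96), but lies inside an unnamed entry with a mean of 28.3 FPKM.

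On the other side, Mrpl54 (chr10:80727467-80729671) stood at 152 to 208 FPKM in retinoic acid and 81.9 to 122 FPKM after LIF withdrawal (0.94, SE 0.12, adjusted p = 6.15e-05, and 0.71, SE 0.09, adjusted p = 2.65e-05). Mrpl30 stood at 130 to 189 FPKM and 73.1 to 126 FPKM (0.93 and 0.59). Mrpl27 (0.87 and 0.43) and Mrpl2 (0.57 and 0.60) also kept their libraries apart. Mrpl23 rose by 0.70 and 0.99 but overlapped, since 1 day-5 control held 130 FPKM. Mrpl20 was higher in the controls (0.83, SE 0.16, adjusted p = 0.000922) and changed by -0.24 in the knockdowns (adjusted p = 0.0765). Mrpl12, of the stalk that recruits translation factors, was higher in the controls (0.66, adjusted p = 2.72e-05) and changed by 0.05 in the knockdowns (adjusted p = 0.418). For both genes the difference between the 2 changes passed its own test, which 12 of the 99 genes passed, beside 3.44% of all entries. Mrpl11, also of the stalk, was higher in the knockdowns (0.28, adjusted p = 0.00928) and changed by 0.21 in the controls (adjusted p = 0.114).

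Among the 29 small-subunit genes, 13 were higher and 8 lower in the controls, and 7 higher and 10 lower in the knockdowns. Mrps14 (chr1:162125391-162131317) was low in the retinoic acid controls, at 2.19 and 2.73 FPKM against 10.2, 11.4, 12.4, 11.5 and 10.3 FPKM. Its log2 change was -1.82 (SE 0.19, adjusted p = 1.56e-05), and -0.88 (SE 0.14, adjusted p = 0.000174) in the knockdowns, where it stood at 3.62 to 6.59 FPKM in retinoic acid. Mrps18c was lower in both (-0.66 and -1.22), although the retinoic acid controls themselves were 21.2 and 8.88 FPKM. Mrps21 (chr3:95666575-95674542) stood at 293 and 328 FPKM in both retinoic acid controls and 140 to 186 FPKM in the LIF-withdrawal controls (0.91, SE 0.10, adjusted p = 1.7e-05, and 0.58 in the knockdowns). Mrps9 was higher in both with no overlap (0.83 and 0.60). Mrps12, of the decoding centre, and Mrps35 were higher in the controls (0.46, adjusted p = 0.0074, and 0.39, adjusted p = 0.034), and changed by 0.18 and 0.21 in the knockdowns (adjusted p = 0.0919 and 0.0867).

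The change between cultures went with base composition and length. Across the 99 genes, Spearman's rho between the change and the GC content of the transcript was 0.43 in controls and 0.35 in knockdowns, beside 0.29 and 0.31 across 12506 coding entries. With transcript length it was -0.27 and -0.20, beside 0.01 and 0.03. These are descriptions across genes, which share their libraries and are not independent. The third of the genes with the lowest GC had a median change of -0.38 in controls and the third with the highest 0.46. After each library was corrected for a trend with GC, 68 genes were called in controls (40 higher, 28 lower) and 65 in knockdowns (22 higher, 43 lower). Over the 12506 coding entries, 7569 were called in controls and 8764 in knockdowns. Of the 70 earlier calls of these genes in controls 60 remained, and of the 59 in knockdowns 45. The part of GC or length in the change of a single gene was not tested.

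Genes that work with these complexes under other names were also called in both directions; their counts stand beside 59.8% of all entries called in controls and 69.1% in knockdowns. Of 16 translation factors, 3 were higher in the retinoic acid controls (Tsfm 0.56, Tufm 0.46 and Taco1) and 6 lower; the same 6 were lower in the knockdowns: Gfm1, Lrpprc, Mtfmt, Mtif2, Mto1 and Slirp. Lrpprc, which with Slirp stabilises mitochondrial mRNA, changed by -0.77 and -0.74. Slirp itself was uneven, at 3.21 and 1.43 FPKM in both retinoic acid controls, 48.7 and 1.57 FPKM in the 2 shNr2f1as libraries and 45.5 to 96.7 FPKM after LIF withdrawal.

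Of 7 ribosomal proteins with other names, 2 were higher and 2 lower in controls (Ict1 1.10, Aurkaip1 0.35, Ptcd3 -1.38, Gadd45gip1 -0.39), and 2 higher and 3 lower in knockdowns. Of 16 assembly factors, 3 were higher in both (Dhx30, Ftsj2, Noa1) and 3 lower in controls (Tfb1m -1.27), 4 in knockdowns. Of 22 import partners, 7 were higher and 5 lower in controls, 4 and 9 in knockdowns; Romo1 rose by 1.34 and 1.11, and Hspa9, the motor chaperone, fell by 0.84 and 0.93 on the log2 scale. Of 9 genes for copying and transcribing mitochondrial DNA, 1 was higher and 3 lower in controls and 2 and 3 in knockdowns, with Top1mt, the mitochondrial topoisomerase, up by 1.68 in both.

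Of 11 regulators, 3 were higher and 3 lower in each set. Nrf1 rose by 0.73 and 0.45 and Mycn by 0.33 and 0.74, while Gabpa fell by 0.75 and 0.71 and Yy1 by 0.68 and 0.59 on the log2 scale. Of 8 pluripotency genes, 1 was higher (Sox2) and 6 lower in the retinoic acid controls, and of 8 mitotic genes 1 was higher and 5 lower.

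**Figure D3:**
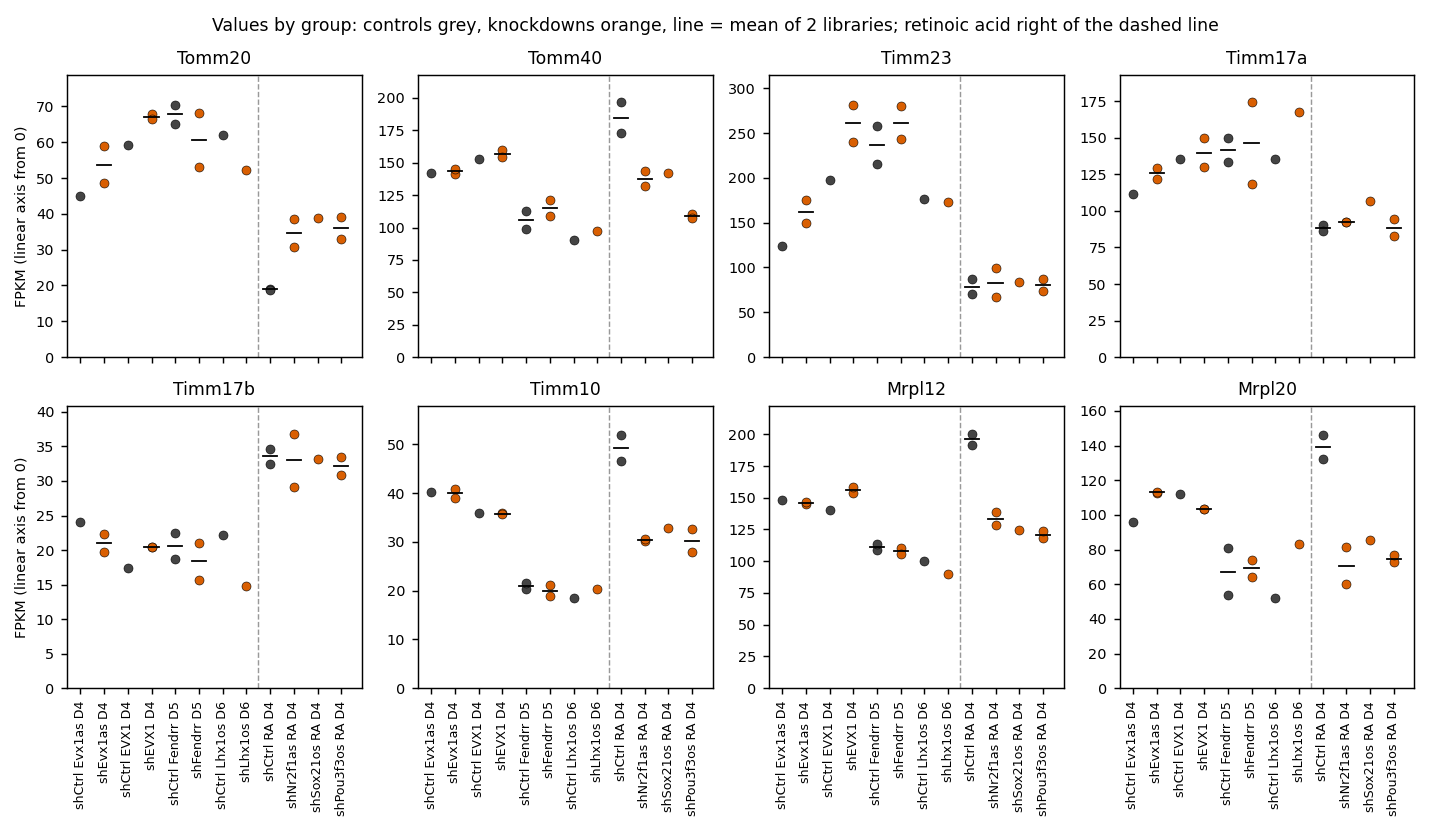
FPKM of 8 genes in each group, 1 point per library, controls grey and knockdowns orange, with a line at the mean of groups of 2; retinoic acid groups stand right of the dashed line. Timm23 and Timm17a are low and Timm17b is high in all retinoic acid libraries; in Tomm40, Timm10, Mrpl12 and Mrpl20 the 2 retinoic acid controls stand above the 5 retinoic acid knockdowns, and in Tomm20 below them.

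Days of LIF withdrawal were compared in CJ9 controls, with 1 library at day 6 and 1 at day 4 and the spread taken from the other groups. Of the 99 genes 2 were higher and 7 lower at day 6, 9.09%, beside 10.6% of all entries (7.18% higher and 3.43% lower). The day-4 and day-6 libraries belong to separate knockdown experiments, so day and experiment cannot be told apart. With the libraries scaled to the same total, 3 were higher and 4 lower, beside 1238 and 433 of all entries. With only the libraries of this comparison fitted, limma called 0 of the genes (15 at an unadjusted p under 0.05) and 0 of all entries.

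Mrpl14 (chr17:45823321-45835444) stood at 14.2 FPKM at day 4, 34.7 and 27.4 FPKM in both controls of day 5, and 44.6 FPKM at day 6, a log2 change of 1.59 (SE 0.24, limma adjusted p = 0.00312). The shLhx1os library of day 6 held 25.7 FPKM. Mrpl32 stood at 12.3, then 35.5 and 39.0, then 26.9 FPKM (1.07, adjusted p = 0.046), so its day-5 libraries were the highest. Among the genes that fell, Mrpl20 went from 112 to 51.8 FPKM (-1.10, SE 0.26, adjusted p = 0.0239), with 53.7 and 80.9 FPKM at day 5. Timm10 went from 35.9 to 18.5 FPKM (-0.92, SE 0.16, adjusted p = 0.00612), with 20.3 and 21.6 FPKM at day 5. The day-6 shLhx1os library held 83.3 FPKM of Mrpl20. Timm10 was already low in both day-5 controls, as was Tomm40, which went from 153 to 90.4 FPKM (-0.75, adjusted p = 0.0128). The others were Mrpl16 (-0.80), Timm8a1 (-0.78), Mrps11 (-0.58) and Mrpl12 (-0.49). Of the 7 genes lower at day 6, all but Mrpl16 were also called higher in the retinoic acid controls. The 2 comparisons share the day-6 control, and a low value in that library leans towards both calls, so this overlap is no separate result. The LIF-withdrawal controls of the culture comparison include days 5 and 6, and the part of day in the culture change was not tested.

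**Figure D4:**
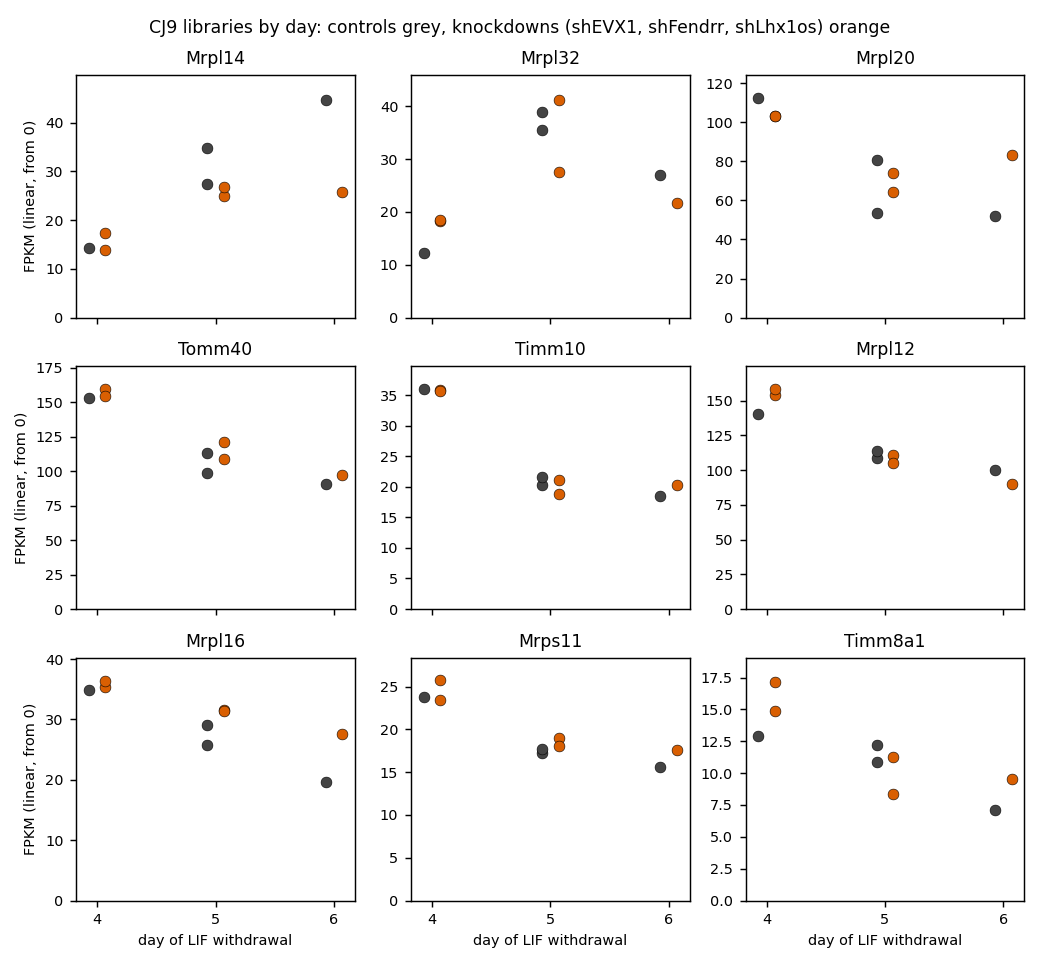
FPKM of the 9 genes called between day 4 and day 6 in CJ9 cells, by day of LIF withdrawal, with controls grey and the shEVX1 (day 4), shFendrr (day 5) and shLhx1os (day 6) libraries orange. Mrpl14 and Mrpl32 are lowest at day 4, and the other 7 genes are higher at day 4 than in the day-6 control.

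Of the hairpins used after LIF withdrawal, 3 were tested. With shEvx1as, 0 genes were called by limma (4 at an unadjusted p under 0.05), beside 0.00669% of all entries. Without the filter on low values 1 was called, beside 213 of 27960 entries. With shEVX1, 0 were called (2 unadjusted), beside 0.00669%, and with shFendrr 0 (4 unadjusted), beside 0.147% (0.0535% higher and 0.0937% lower). In simulated data a 2-fold change was recovered in 52.5%, 54.7% and 71.8% of changed entries, but a 1.5-fold change in 0.167%, 0% and 13.5%. These rates hold under the settings of the simulation, which gives a single control library the spread of the other groups. They cannot show the power of the real libraries.

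With shEvx1as, 84 of the 99 genes had a change above 0, beside 59.6% of all entries, with a median of 0.12, beside 0.05. With the libraries scaled by the median ratio, 67 were above 0, beside 49.4% of all entries, and the median was 0.047; without the second shEvx1as library the median was 0.054, with 75 above 0. The largest was Timm9, at 10.9 FPKM in both knockdown libraries and 4.81 FPKM in the single CJ7 control (log2 change 1.04, SE 0.16, limma adjusted p = 0.223). The other 4 LIF-withdrawal controls, all of CJ9 cells, held 9.12 to 11.7 FPKM. With 1 CJ7 control, a deviation of that library and an effect of the hairpin cannot be told apart. Mrps18c (0.79) and Mrpl32 (0.69) came next, and Timm17b (-0.19), Timmdc1 (-0.16) and Tomm40l (-0.16) were lowest. With shEVX1, 87 genes were above 0, beside 60.9% of all entries (median 0.11, beside 0.05), and 66 with median ratio scaling, beside 48.9% (median 0.040). Changes ran from Mrpl53 (0.58), Mrpl32 (0.55) and Timm21 (0.52) to Mrpl20 (-0.12), Mrpl41 (-0.14) and Mrps21 (-0.20). With shFendrr the median was -0.04 (0.00 over all entries), and among genes whose knockdown libraries lay wholly apart from the controls the changes ran from Mrpl1 (0.38), Mrpl27 (0.37) and Mrps18c (0.28) to Timm9 (-0.32), Mrps35 (-0.33) and Mrps16 (-0.33).

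The day-6 shLhx1os library has no replicate and was set beside its 1 control with no test. Mrpl23 was past 2-fold, at 38.1 FPKM against 95.5 FPKM, 2.51-fold lower. That is 1 of the 96 genes that reached 5 FPKM in either library, beside 13.4% of 9011 such entries (7.62% lower). The median log2 difference was -0.04 over the 99 genes, beside -0.06 over all kept entries. It turned to 0.072 over the 99 genes with median ratio scaling, which rescales all entries.

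In the retinoic acid culture, 3 hairpins were compared with the same 2 controls, so the 3 comparisons share those libraries. With shNr2f1as, 1 gene was higher and 4 lower (limma, 5.05% of the 99, beside 0.676% of all entries, 0.422% higher and 0.254% lower). With shPou3f3os, 1 was higher and 7 lower (8.08%, beside 2.32%, or 1.6% higher and 0.716% lower). With the single shSox21os library 0 were called (24 at an unadjusted p under 0.05), beside 0.0669% (0.0468% higher and 0.0201% lower). Median log2 changes were -0.15, -0.19 and -0.11, beside 0.04, 0.04 and 0.03 over all entries. In 47 genes the 5 knockdown libraries lay wholly outside the 2 controls, 41 below and 6 above, 47.5% of the genes beside 28.5% of all entries (12.6% below and 15.8% above).

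These calls rested on few libraries. Without the first retinoic acid control more of the genes were called with shNr2f1as and shPou3f3os, and without the second few or none. Calls over all entries rose and fell in the same way. The median log2 changes with these 2 hairpins were -0.20 and -0.27 without the first control, and -0.14 and -0.16 without the second. Leaving out 1 knockdown library gave 0 or 2 calls with shNr2f1as and 0 in either case with shPou3f3os, and fitting only the libraries of each comparison gave 0 for both (22 and 37 at an unadjusted limma p under 0.05). Scaled to the same total, 1 was higher and 2 lower with shNr2f1as (59 and 27 of all entries). With shPou3f3os 3 were then higher and 6 lower (348 and 76 of all entries).

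Mrpl20 (chr4:155177727-155182938) stood at 132 and 146 FPKM in both retinoic acid controls, 60.1 and 81.3 FPKM with shNr2f1as, 85.3 FPKM with shSox21os, and 72.8 and 76.7 FPKM with shPou3f3os. All 5 knockdown libraries lay below both controls. The log2 changes were -0.98 (SE 0.18, adjusted p = 0.0458), -0.70 (SE 0.23, adjusted p = 0.295) and -0.89 (SE 0.18, adjusted p = 0.0409). Timm10 stood at 46.6 and 52.0 FPKM in the controls and at 30.1 and 30.5, 32.9, and 28.0 and 32.6 FPKM with the 3 hairpins in the same order. Its changes were -0.68 (adjusted p = 0.038), -0.57 (adjusted p = 0.178) and -0.69 (adjusted p = 0.0258). Mrpl12 (chr11:120345983-120350068), whose position holds the entry Gm16755 at a mean of 0.529 FPKM, stood at 201 and 192 FPKM in the controls and at 138 and 129, 125, and 118 and 123 FPKM. Its changes were -0.55 (adjusted p = 0.0352), -0.65 (adjusted p = 0.0773) and -0.69 (adjusted p = 0.0126).

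Tomm20 went the other way, at 38.6 and 30.6, 38.9, and 32.9 and 39.2 FPKM with the hairpins against 19.1 and 18.7 FPKM. Its changes were 0.83 (SE 0.16, adjusted p = 0.0458), 1.00 (SE 0.19, adjusted p = 0.12) and 0.89 (SE 0.16, adjusted p = 0.0283). The levels with the hairpins were still below every LIF-withdrawal library. Tomm40 was lower with shPou3f3os, at 111 and 107 FPKM against 173 and 197 FPKM (-0.75, SE 0.11, adjusted p = 0.0243), and stood at 132 and 144 FPKM with shNr2f1as (-0.42, adjusted p = 0.0872). The other calls were Mrps17 with shNr2f1as (-0.63), and Mrpl34 (-0.65), Mrps11 (-0.58) and Mrpl18 (-0.55) with shPou3f3os.

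As the mean of the 3 knockdown groups against the controls, a comparison added after the values were seen, 3 genes were higher and 11 lower (14.1% of the 99, beside 3.97% of all entries, 2.5% higher and 1.47% lower). The lower ones were Mrpl20 (-0.86), Timm10 (-0.64), Mrpl12 (-0.63), Mrps7 (-0.61), Mrps11 (-0.55), Mrps26 (-0.54), Tomm40 (-0.52), Mrpl18 (-0.52), Mrps17 (-0.46), Mrps21 (-0.43) and Mrpl30 (-0.36); the higher ones were Tomm20 (0.91), Mrps14 (0.88) and Mrps15 (0.61). Without the second control hardly any of these calls remained, and without either shPou3f3os library fewer did. Calls over all entries fell too. With only these 7 libraries fitted, limma called 0 of the genes (40 at an unadjusted p under 0.05) and 1 of all entries. Timm23 (0.06), Timm17a (0.12) and Timm17b (-0.04), which differed between the cultures, did not pass the test here.

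**Figure D5:**
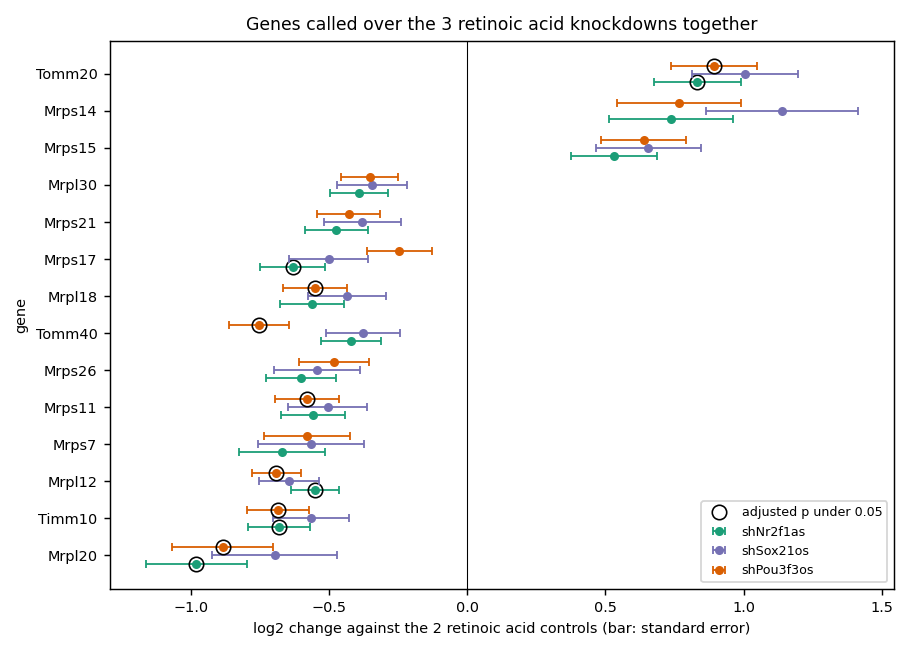
Log2 change in FPKM + 1 against the 2 retinoic acid controls, with its standard error, for the 14 genes called over the 3 knockdowns together; each colour is 1 hairpin, and a ring marks an adjusted p under 0.05 for that hairpin alone. In all 14 genes the 3 hairpins lie on the same side of 0, against shared controls.

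Other measures separated the same libraries. Myc, which binds the E-box and drives many genes of growth, stood at 35.2 and 25.1 FPKM in both retinoic acid controls and at 7.06 to 11.1 FPKM in the 5 knockdowns, and was called with each hairpin (-1.76, -1.93 and -1.61; adjusted p = 0.016, 0.0359 and 0.0126). Hspd1, the matrix chaperonin that folds imported proteins, stood at 244 and 243 FPKM and at 142 to 167 FPKM, and was called with shNr2f1as and shPou3f3os (-0.74 in both). Chchd4, which imports and oxidises proteins of the intermembrane space, was lower over the 3 together (-0.54, adjusted p = 0.037). No other gene of the 6 pathway lists passed in these comparisons.

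The 5 fibroblast or feeder markers summed to 9.75 and 11.2 FPKM in the controls and to 18.3 to 47.1 FPKM in the knockdowns. Col1a1 and Col1a2 lay above both controls in all 5 knockdowns, while Thy1 and Col3a1 overlapped. Postn was at 0 in both controls and in 4 of the 5 knockdowns. The 4 primitive endoderm markers summed to 16.6 and 9.40 FPKM and to 19.1 to 37.2 FPKM, nearly all of it Dab2, with Afp at 0 in 3 knockdowns. Sox17 went the other way, at 0.35 and 0.80 FPKM in the controls and 0.15 to 0.30 FPKM in the knockdowns, and Gata6 overlapped. Across the 99 genes the change over the 3 together had a Spearman's rho of -0.38 with GC content (-0.15 across coding entries) and 0.23 with length (0.10). After the GC correction 4 genes were higher and 17 lower, beside 372 higher and 351 lower of 12506 coding entries. The part of Myc, of these markers, of the pluripotent state of the controls and of GC in the hairpin changes was not tested.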

How the data were processed

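The mRNA of 19 libraries was sequenced after preparation with a stranded mRNA kit, per the labels' protocols. The deposited table holds FPKM values by gene or assembled locus, 1 column per library, computed by the authors. The tools named are CASAVA and TopHat2 2.0.11, and the builds mm9 and mm10, per the submitters' processing notes. For the quantifier, its annotation and its use of strand, nothing is given in the sources used here, so genes that overlap another entry, 26 of the 99, have uncertain values. Gene positions are as deposited and were read as mm9, whose unplaced chromosome names the table uses; promoter windows are GRCm38.p6, and the 2 were not mixed.

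Entries with at least 1 FPKM in 2 libraries were kept (14942). With limma 3.58.1 (R 4.3.3), log2(FPKM + 1) of all 19 libraries was modelled by the means of 12 groups, leaving 7 residual degrees of freedom; the prior of the variance depended on the level. Groups of 1 library were assumed to vary like the others. Tests were two-sided with Benjamini-Hochberg adjustment over all kept entries at 0.05. The log2 scale with a pseudocount of 1 understates changes of low genes. Tables were made with Python 3.11.15 and pandas 2.3.3. The fit was tested on simulated data with 200 changed entries of 14942, drawn from those not at low levels. Its noise was independent and normal, with the spread fitted to each entry over all groups. Read depth is unknown from FPKM, so no counting intervals are given; summed FPKM lay between 559050 and 655315.

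Genes and lists were chosen with earlier results of these data known. Named genes were all called ones where at most 12, otherwise the 6 largest rises and 6 largest falls; where none was called, the 3 largest each way whose libraries did not overlap; a set of import and stalk genes whatever their change; and the highest and lowest genes by mean and by spread. For shLhx1os, with 1 library a side, the rule was a 2-fold change with at least 5 FPKM. Other genes of the 99 named with values were chosen after these were seen. Alternatives were another pseudocount, floor, scaling and variance prior, a fit of the compared libraries alone, a replicate block, a pooled day-4 control and each library left out; those on length, GC and coding entries, on leaving out the only library of a group, the 3 retinoic acid hairpins together and the difference of the culture changes were added after the data were seen. Length and GC came from GENCODE M21 transcripts. No group has 4 libraries, so no search for outlying libraries within a group was made.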

Additional observations from a re-analysis of the deposited data

Results flagged for a closer look

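In 12 of the 99 genes the change between cultures in the knockdown libraries differed from that in the control libraries by a test of the difference itself (limma, adjusted p between 0.0166 and 0.0455), beside 3.44% of all 14942 entries. This test was added after the values were seen, and it rests on the same 2 retinoic acid controls as the hairpin comparisons, so both kinds of result share libraries. The log2 change, retinoic acid minus LIF withdrawal, was lower in knockdowns than in controls by differences of -1.07 for Mrpl20, -0.70 for Mrps7, -0.66 for Timm10, -0.61 for Mrpl12, -0.61 for Mrpl22, -0.61 for Mrps11, -0.60 for Mrps26, -0.59 for Mrps17, -0.59 for Mrpl18 and -0.59 for Tomm40. It was higher by 0.91 for Tomm20 and 0.72 for Mrps15.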

How the results depend on the processing

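Values of the single genes recomputed under the alternatives kept their direction. Counted once per gene and alternative, 794 were on the same side of the threshold as reported and 121 no longer past it. All 121 were results of the retinoic acid hairpins or of day. Between cultures only the largest rises and falls of each comparison were recomputed gene by gene, and these all stayed past the threshold. Other calls between cultures did not all remain. Of the 70 calls in controls the fewest, 51, remained without the second retinoic acid control. Of the 59 in knockdowns the fewest, 45, remained after the GC correction. Counts of calls between cultures stayed within 1.5 times. Without a filter on low values, shEvx1as gave 1 call, shSox21os 1, shNr2f1as 2 and shPou3f3os 4. Beside these stood 213, 216, 47 and 161 of 27960 entries. With no trend in the variance prior, shNr2f1as gave 0 and shPou3f3os 5, beside 54 and 279 of all 14942 entries. With only the compared libraries fitted, shNr2f1as, shPou3f3os, the day comparison and the retinoic acid hairpins together each gave 0, against 22, 37, 15 and 40 at an unadjusted limma p under 0.05. Scaled to the same total, shNr2f1as gave 3 calls, beside 86 of all entries. The medians were then -0.13 for shPou3f3os (0.087 over all entries) and -0.023 for day (0.099 over all entries). With median ratio scaling, the medians were 0.047 for shEvx1as, 0.040 for shEVX1, -0.14 for day and 0.072 for shLhx1os. Over all entries those for shEvx1as, shEVX1 and day were 0, -0.0016 and 0.00075. At a 1.5-fold limit shLhx1os had 5 genes, and no share over all entries is given here at this limit. Over coding entries only, and with the length or the GC correction, shNr2f1as gave 8 calls each, beside 167, 163 and 275 of 12506 entries. The length correction gave medians of 0.021 for shFendrr, 0.090 for culture in controls and -0.15 for day. Over all coding entries these were 0.011, -0.0042 and -0.012. The GC correction gave 0.10 for culture in controls and -0.16 for day, beside 0.00027 and -0.014 over coding entries. The cause of these shifts was not tested.

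Each library was left out in turn, except where its side of a comparison would be empty; for groups of 1 library this was added after the data were seen. Calls ranged from 53 to 70 for culture in controls (medians 0.10 to 0.17, lowest without the day-6 control), 55 to 64 in knockdowns (-0.14, without shLhx1os, to -0.059), 0 to 0 for shEvx1as (0.054 to 0.17), 0 to 0 for shEVX1 (0.11 to 0.15), 0 to 0 for shFendrr (-0.06 to -0.01), 0 to 8 for shNr2f1as (-0.21 to -0.12), 0 to 3 for shSox21os (-0.16 to -0.11), 0 to 19 for shPou3f3os (-0.27 to -0.16) and 1 to 15 for the retinoic acid hairpins together (-0.24 to -0.13). Over all entries the calls also changed with the library left out. The replicate numbers were not taken to pair libraries: same-numbered deviations correlated at 0.35 for shFendrr, and at 0.303, -0.0191 and -0.0533 between retinoic acid groups. With the replicate block, shNr2f1as gave 11 calls, shPou3f3os 16 and the hairpins together 17, beside 331, 813 and 905 of all 14942 entries. For shFendrr and shSox21os it gave 0 each, beside 30 and 13 of all entries.

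Read depth is unknown, so no limit of detection is given. In simulated data, 2-fold changes were recovered in 76.7% of entries for shNr2f1as, 51.3% for shSox21os, 72.8% for shPou3f3os and 35.2% for the day comparison.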

Other observations

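The mitochondrial ribosome translates transcripts of mitochondrial DNA, and 9 entries of the table lie on the mitochondrial chromosome; they were chosen after their values were seen and were not tested. Cox2, a core subunit of cytochrome oxidase, stood at day 5 at 485 and 1282 FPKM without shFendrr and 1370 and 1967 FPKM with it, at 74.9 to 110.9 FPKM in the other LIF-withdrawal libraries and at 147 to 213 FPKM in retinoic acid. The day-5 libraries thus stood apart from both. Cytb, of respiratory complex III, stood at 27.8 to 95.2 FPKM after LIF withdrawal and at 100.0 to 139 FPKM in retinoic acid, with no overlap. The entry DQ539915 went the other way, at 525 to 2974 FPKM and at 83.7 to 166 FPKM. The remaining entries are not described here.

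Of the 99 genes, 3 differed by over 2-fold between the 2 retinoic acid controls: Mrpl42 (121 and 47.3 FPKM), Mrps18c (21.2 and 8.88 FPKM) and Mrps33 (37.3 and 11.04 FPKM). They were chosen after their values were seen.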
